A study of Mus musculus with 14 samples.

Results

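The constitutive proteasome was followed across 4 sorted B cell populations of the mouse spleen as 42 of the 18193 genes that the arrays measured. Members were the genes annotated as Psma, Psmb, Psmc or Psmd with a number, without the immunoproteasome subunits Psmb8, Psmb9 and Psmb10, together with the activators Psme3 and Psme4 and the assembly chaperones Psmg1 to Psmg4. Each gene was read from 1 probe set, the brightest on average over the 14 arrays. By role they comprised 8 alpha and 8 beta genes of the core, 9 genes of the base, 8 of the lid, 7 assembly chaperones (Psmd5, Psmd9, Psmd10 and Psmg1 to Psmg4) and 2 activators. RNA was amplified and hybridized to Affymetrix arrays, and the values below are normalized intensities on a linear scale unless a log2 scale is named.

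All cells came from male C57Bl/Ka mice, and every sort discarded cells bearing CD3, CD4, CD5, CD8, CD11b, Gr-1 or Ter119. Naive cells (3 arrays) were B220+ CD23+ IgD+ IgM-low, Ig-lambda+ cells of unimmunized mice aged 4 to 8 weeks. The other populations came from mice given NP-CGG, a hapten on a carrier protein, with alum: NP-binding syndecan-1+ B220-low plasma cells on day 7 (4 arrays, age 5 to 9 weeks), PNA+ CD38-low germinal center cells on day 14 (3 arrays, 6 to 10 weeks) and CD38-high, IgM- IgD- PNA- memory cells after 10 to 12 weeks (4 arrays, 14 to 18 weeks). The dose was 100 µg for all immunized samples except plasma replicate 1, whose label gives none. Subset, time after immunization and age cannot be told apart, and the labels do not say whether replicates came from separate mice, so p-values measure the spread between these arrays, which may be technical.

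The proteasome degrades proteins tagged with ubiquitin. Its core is a barrel of stacked alpha and beta rings in which Psmb5, Psmb6 and Psmb7 carry the chymotrypsin-like, caspase-like and trypsin-like active sites. A cap made of a base, with the ATPases Psmc1 to Psmc6, and a lid, with the deubiquitinase Psmd14, recognizes, unfolds and feeds the substrate. Plasma cells are known for secreting large amounts of antibody and for being sensitive to proteasome inhibitors.

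Of the 42 members, 40 were above the background of the unspiked bacterial control probe sets (10.96 to 16.1 per array) on all 14 arrays. The testis subunit Psma8 (9.56 to 12.5) was above it on 1 array and the thymus subunit Psmb11 (6.94 to 10.0) on none, so no fold is given for either. The sorted populations carried their defining markers: the summed plasma list was 26614 to 36356 on plasma arrays against 2678 to 5359 elsewhere, the germinal center list 3939 to 5143 on germinal center arrays against 169 to 1792 elsewhere, and the memory list 246 to 386 on memory arrays against 49.0 to 199 elsewhere. Of the memory list, Cd80, Pdcd1lg2 and Zbtb32 were higher on every memory array than on any other array. Nt5e overlapped between germinal center (51.2 to 151) and memory arrays (61.8 to 156). Memory array 4 read 489 for the plasma gene Jchain and 49.9 for Sdc1. The other memory arrays read 28.5 to 86.3 and 6.37 to 7.91. The list for mature B cells was 16984 to 20041 on naive and memory arrays, 8326 to 11044 on germinal center arrays and 2039 to 3851 on plasma arrays. Both measured erythroid genes were above background on no array, and the natural killer, platelet and stromal lists summed to 30.2 to 43.5, 64.4 to 123 and 39.7 to 58.7 over all arrays. The T cell list was 802 to 1060 on plasma arrays and 76.3 to 95.6 elsewhere, of which Cd28 alone made 711 to 963 in plasma cells. Myeloid genes summed to 121 to 269 on plasma arrays, of which Csf1r made 30.8 to 145, and to 115 to 158 elsewhere. The 3 dendritic genes summed to 222 to 268 on germinal center arrays and 47.0 to 87.5 elsewhere. Flt3 alone made 178 to 238 of that sum in germinal center cells. The share of these cells in the results was not tested. In sorted bulk RNA, fewer cells of a type and less RNA per cell cannot be told apart.

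Germinal center array 1 stood apart for these genes. It was the highest of the 3 germinal center arrays for 29 of the 40 detected members, against 34.1% of bright genes (the 6116 genes whose log2 values average 6 or more), and germinal center array 2 was the lowest for 23, against 49.1% of bright genes. The ratio of the 3' to the middle actin probe set, a sign of RNA length, was 10.1, 17.6 and 6.11 on germinal center arrays 1 to 3 against 5.47 to 6.91 on plasma, 4.39 to 5.30 on naive and 4.15 to 5.33 on memory arrays. The same ratio for Gapdh was 5.45 to 8.41 on plasma, 8.23 to 10.9 on germinal center, 9.44 to 12.0 on naive and 11.03 to 13.02 on memory arrays, so that every plasma array lay below, and for actin above, all naive and memory arrays. With the actin ratio as a covariate, 20 members were higher in plasma and 8 lower in memory against naive cells, where the fit without it gave 19 and 7. Of the 252 differences of members, over all comparisons, 19 lost and 6 gained a call in that fit. Plasma and naive arrays do not overlap in the actin ratio, so for them it cannot be told apart from subset. The part of the Gapdh ratio was not tested. Results on germinal center cells are given with and without array 1 where its absence moved them by over 1.5 times or changed a call.

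RefSeq promoters (GRCm38.p6; 250 bases before and 50 after the start) were matched by gene identifier for 34 of the 42 members, as 36 promoters. The core letters of the antioxidant response element, TGACNNNGC on either strand, are read by Nfe2l1 and Nfe2l2, transcription factors known for control of proteasome genes. They occurred in 6 of the 36 member promoters (16.7%) and in 12.4% of all 32851 promoters. CCAAT, the core of the NF-Y site, occurred on either strand in 13 of the 36 (36.1%) and in 37.4% of all. Both were held by 0 member promoters and by 4.37% of all. The windows with the antioxidant response letters are printed because all 6 of these genes recur in the results on plasma cells. Capitals mark the match, with 20 bases on each side or up to the end of the promoter, on the gene's strand:
Psmb5, chr14:54618014-54618062, minus strand: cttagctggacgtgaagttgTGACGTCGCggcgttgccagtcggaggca
Psmb6, chr11:70525328-70525376, plus strand: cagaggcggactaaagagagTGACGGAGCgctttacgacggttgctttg
Psmc6, chr14:45329577-45329625, plus strand: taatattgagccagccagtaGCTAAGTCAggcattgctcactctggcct
Psmd12, chr11:107479278-107479309, plus strand: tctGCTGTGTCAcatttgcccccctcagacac
Psmd9, chr5:123228139-123228187, plus strand: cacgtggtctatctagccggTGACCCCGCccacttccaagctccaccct
Psme4, chr11:30771748-30771796, plus strand: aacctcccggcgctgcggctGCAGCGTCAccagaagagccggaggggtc

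None of the 13 promoters with CCAAT held the antioxidant response letters, where 4.37% of all promoters held both. The windows printed for CCAAT are those in which it began within 50 bases before the start on the gene's own strand, in the alpha subunit Psma6, the beta subunit Psmb3 and the ATPase Psmc2; Psme3 and Psmd10 held it closer on the other strand, and Psma3, Psmd4 and Psmd14 held it after the start. Capitals mark CCAAT:
Psma6, chr12:55384173-55384217, plus strand: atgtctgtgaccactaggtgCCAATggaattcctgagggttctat
Psmb3, chr11:97703371-97703415, plus strand: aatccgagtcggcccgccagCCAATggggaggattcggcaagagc
Psmc2, chr5:21785227-21785271, plus strand: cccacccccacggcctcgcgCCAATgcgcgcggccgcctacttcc

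Across the 4 populations, 33 of the 42 members differed by limma's moderated F test with Benjamini-Hochberg adjustment over all genes, against 40.9% of all genes and 74.8% of bright genes. The members that did not pass were Psma3, Psma8, Psmb11, Psmc4, Psmd1, Psmd3, Psmd5, Psmd7 and Psmg4. By subset means, 26 members were highest in plasma cells, 11 in germinal center cells, 3 in naive cells and 2 in memory cells. The lowest mean was in memory cells for 36 members, in germinal center cells for 5 and in plasma cells for 1. Of bright genes, 27.1% were highest in plasma cells and 27.7% lowest in memory cells. The most frequent order, plasma above germinal center above naive above memory, was held by 18 members and by 8.68% of all genes.

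**Figure D1:**
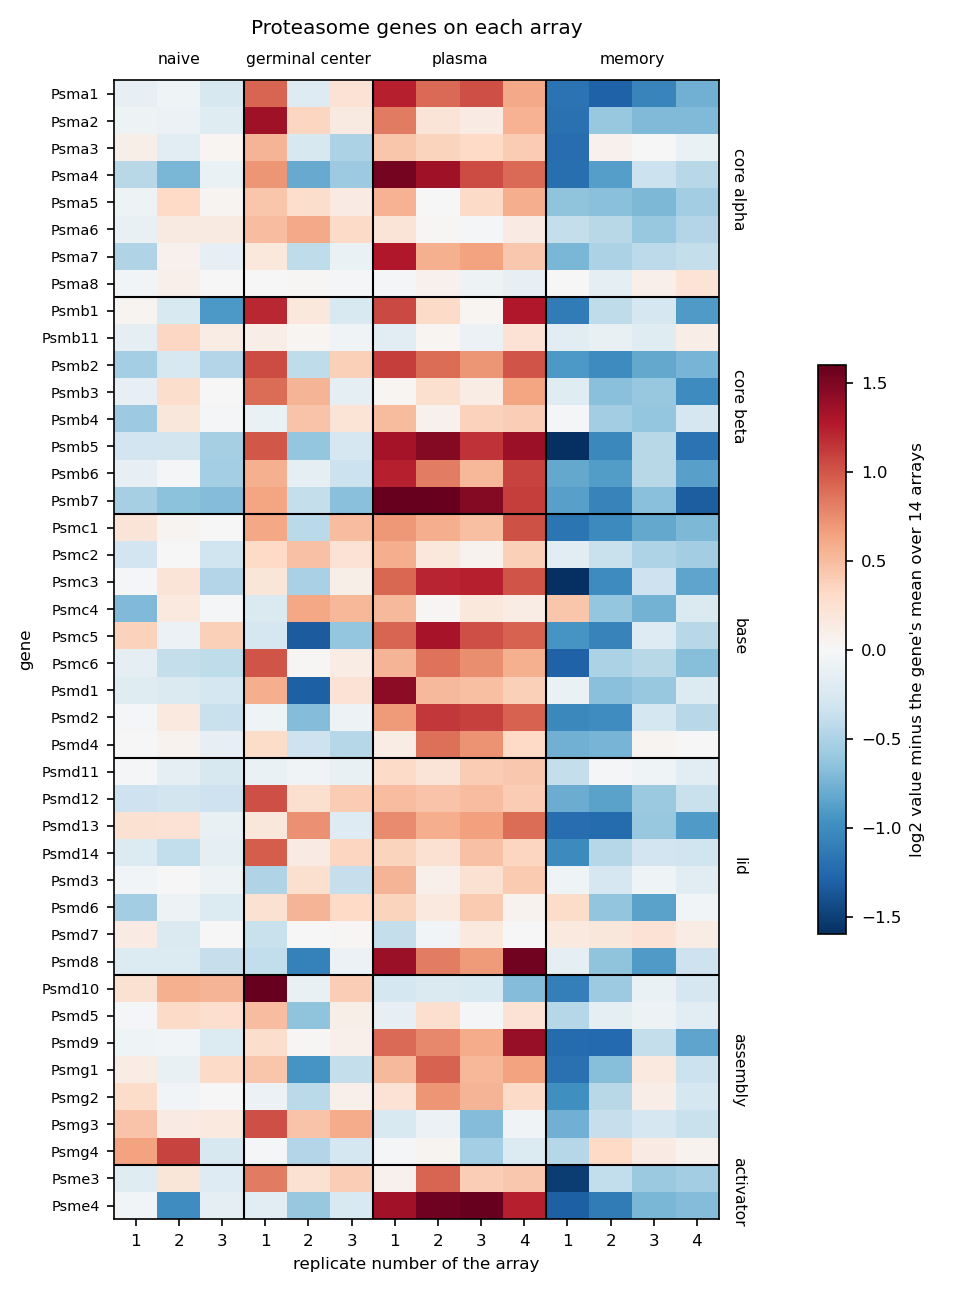
Each row is 1 of the 42 genes and each column 1 array, with colour for the log2 intensity minus the gene's mean over the 14 arrays; values beyond the ends of the scale take the end colour, and Psma8 and Psmb11 lie near background. Most rows of the core, base and lid are red on the 4 plasma arrays and blue on the 4 memory arrays, and germinal center array 1 is redder than arrays 2 and 3.

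The comparison of plasma with naive cells asks how far proteasome transcripts differ between an antibody-secreting cell and its resting precursor. In plasma cells 19 members rose and 0 fell by limma's moderated test at an adjusted p under 0.05, against 14.2% of all genes higher and 16.1% lower (30.3% in either direction), and 20.1% and 34.1% of bright genes. The median difference over the 42 members was 0.56 (log2), against 0.06 over all genes and -0.25 over bright genes. The 19 comprised 7 of 16 core genes, 5 of 9 base genes, 5 of 8 lid genes, 1 of 7 assembly chaperones and 1 of 2 activators. For each of the 19 the lowest plasma array was above the highest naive array, as it was for 94.7% of all genes called higher (13.4% of all genes tested). Without germinal center array 1, which shares the fit, 23 members were called higher and 2 lower in plasma against naive cells.

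All 3 catalytic subunits rose in plasma cells. The trypsin-like subunit Psmb7 read 23.3, 21.3 and 20.8 on naive arrays and 107, 133, 93.1 and 72.4 on plasma arrays, a difference of 2.18 ± 0.27 (log2, ± SE; 4.55-fold; adjusted p = 2.22e-05). It was the largest rise of any member, in a gene whose naive level lay just above background. For the chymotrypsin-like subunit Psmb5 the naive arrays gave 337, 341 and 289 and the plasma arrays 1046, 1152, 927 and 1073, a rise of 1.70 ± 0.32 (3.26-fold; adjusted p = 0.000912). The caspase-like subunit Psmb6 went from 999.9, 1069.9 and 752 to 2585, 1938, 1579 and 2328, a rise of 1.15 ± 0.23 (2.23-fold; adjusted p = 0.00118). Among beta subunits without an active site, Psmb2 rose by 1.35 ± 0.25 (adjusted p = 0.000632), from 156, 191 and 165 to 489.7, 422, 371 and 457. Psmb1 differed by 1.04 ± 0.38, Psmb3 by 0.21 ± 0.24 and Psmb4 by 0.48 ± 0.20 without passing the test. Without germinal center array 1, Psmb1 was called higher (adjusted p = 0.0244). So were Psma2, Psmc1 and Psmd1 (adjusted p = 0.0312, 0.0346 and 0.0401).

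**Figure D2:**
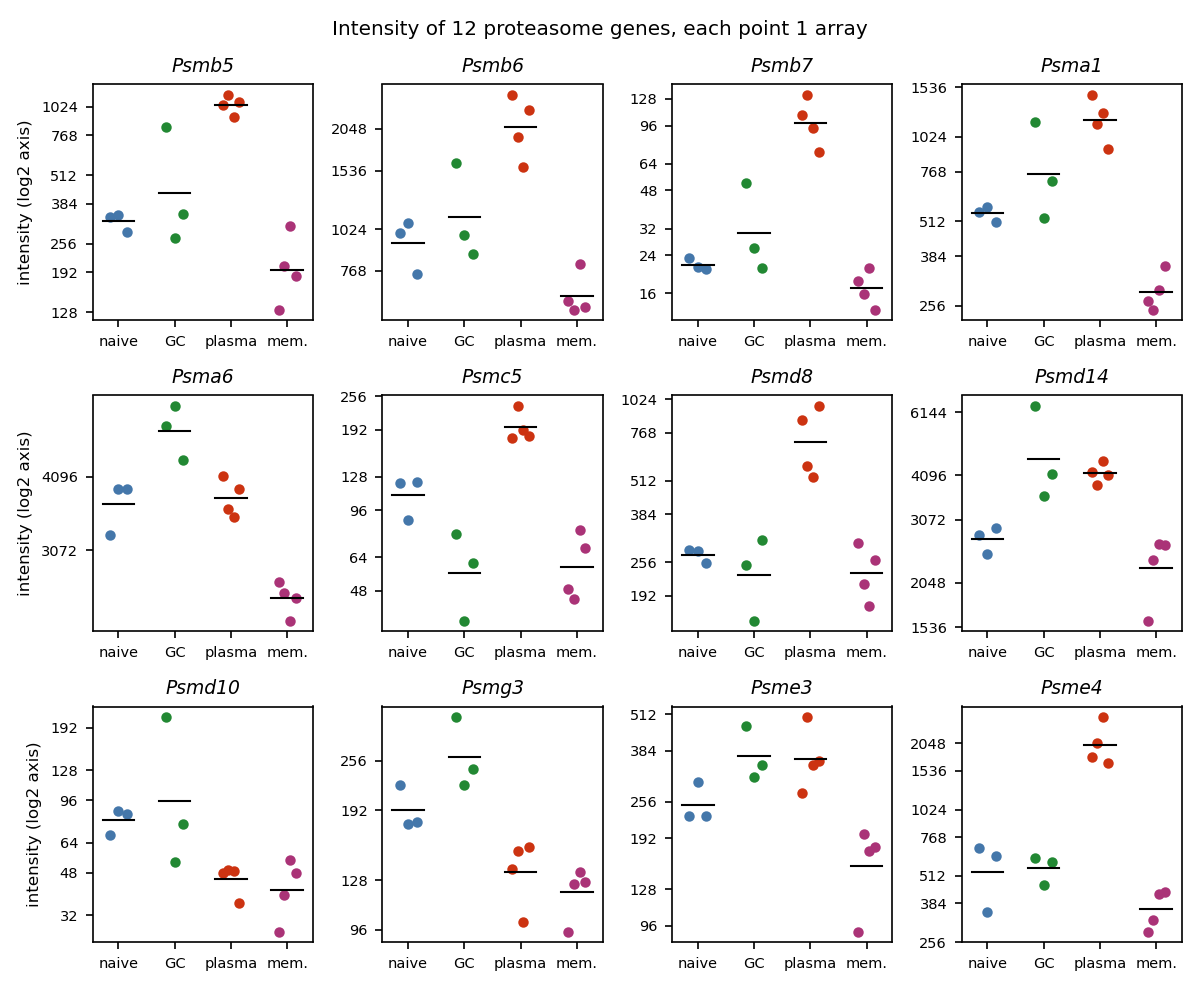
Each panel shows 1 gene, each point 1 array and each bar the subset's mean of log2 values, on a log2 intensity axis whose range differs between panels; GC is germinal center and mem. is memory. The plasma points of Psmb5, Psmb6, Psmb7, Psma1, Psmc5, Psmd8, Psmd14 and Psme4 lie above all naive points. Those of Psmd10 and Psmg3 lie below all naive points. The highest germinal center point is array 1 in all panels but Psma6 and Psmd8.

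In the alpha ring, which gates entry to the core, Psma1, Psma4 and Psma7 rose. The plasma arrays of Psma4 read 302, 267, 215 and 195 and the naive arrays 76.8, 63.0 and 96.9, a rise of 1.63 ± 0.32 (adjusted p = 0.00119). Psma1 was at 554, 575 and 509 in naive and 1436, 1139, 1241 and 922 in plasma cells, a rise of 1.10 ± 0.23 (adjusted p = 0.00179). A second, dimmer probe set of Psma1 moved the opposite way, by -1.49, and the call was lost on the mean of its probe sets. Psma7 rose by 0.91 ± 0.21 (adjusted p = 0.00343). The smallest difference of a detected core gene was that of Psma6, with 3258, 3902 and 3908 in naive and 4105, 3607, 3501 and 3899 in plasma cells (0.04 ± 0.12; adjusted p = 0.863), and here the arrays of both subsets overlapped.

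The base rose at the ATPases Psmc2, Psmc3, Psmc5 and Psmc6 and at Psmd2, a scaffold that binds ubiquitin-like domains. Psmc3 read 381, 451 and 281 in naive and 740.4, 911, 926 and 782 in plasma cells, a rise of 1.20 ± 0.27 (adjusted p = 0.00356). For Psmd2 the values were 328, 374 and 262 in naive and 536, 733, 714 and 647 in plasma cells, a rise of 1.04 ± 0.22 (adjusted p = 0.00212). Every base gene had a positive difference, the smallest being that of the ATPase Psmc4 at 0.40 ± 0.29 (adjusted p = 0.35), whose naive arrays (1212, 2191 and 1931) overlapped the plasma arrays (2815, 2003, 2215 and 2141). A dimmer probe set of Psmc4 gave 0.80 and passed limma's test over all probe sets (adjusted p = 0.0418). The ubiquitin receptor Psmd4 was at 295, 309 and 272 in naive and 322, 545, 489.9 and 371 in plasma cells, all 4 plasma arrays above the naive ones, but its difference of 0.54 ± 0.25 did not pass (adjusted p = 0.133). Its dimmer probe set gave 0.69 and passed the test over all probe sets (adjusted p = 0.00319). The scaffold Psmd1 differed by 0.94 ± 0.37 (adjusted p = 0.0688), with plasma array 1 at 924 and the other plasma arrays at 446 to 493.

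In the lid, Psmd8, Psmd11, Psmd12, Psmd13 and Psmd14 rose. Psmd8 had the largest difference, from 283, 283 and 255 to 856, 580.2, 527 and 964 (1.38 ± 0.26; adjusted p = 0.000888). The scaffold subunit Psmd12 was even within subsets, with 567, 581 and 567 in naive and 1001, 979.7, 1003 and 947 in plasma cells, a rise of 0.78 ± 0.17 (adjusted p = 0.00249). Psmd14, the lid's deubiquitinase, rose by 0.61 ± 0.20 (adjusted p = 0.0331), from 2783, 2463 and 2920.1 to 4173, 3848, 4479 and 4110.1. The calls of Psmd13 and Psmd14 were lost in 8 and 6 of the 14 fits that left out 1 array. Psmd7, the partner of Psmd14, was at 37.2, 28.9 and 33.9 in naive and 26.1, 33.0, 37.8 and 33.8 in plasma cells and differed by -0.03 ± 0.15 (adjusted p = 0.9), while a dimmer probe set of the gene, above background on 3 of the 14 arrays, gave 0.94.

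Assembly chaperones had a median difference of -0.10, the lowest of the role groups. Psmd9, a chaperone of the base, rose by 1.03 ± 0.22 (adjusted p = 0.00194), from 67.3, 68.7 and 60.9 in naive to 133, 121, 107 and 186 in plasma cells. Another probe set of Psmd9, above background on 11 of the 14 arrays, moved by -1.26, and the call was lost on the mean of its probe sets. Psmd10, also called gankyrin, read 68.9, 86.4 and 84.6 in naive and 48.1, 49.6, 49.0 and 36.1 in plasma cells, a difference of -0.81 ± 0.36 that did not pass (adjusted p = 0.112). Its plasma arrays all lay below its naive arrays, and without germinal center array 1, which read 213 for this gene against 53.5 and 76.3 on arrays 2 and 3, the adjusted p was 0.0117. The base chaperone Psmd5 differed by -0.10 ± 0.22 (adjusted p = 0.774), with overlapping arrays (668, 839 and 815 in naive, 617, 817, 661 and 790.5 in plasma cells).

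The core chaperones Psmg1 to Psmg4 did not pass the test in plasma against naive cells. Psmg1 was at 258, 219 and 292 in naive and 339.6, 456, 343 and 372 in plasma cells (0.56 ± 0.32), and its partner Psmg2 at 182, 144 and 148 in naive and 174, 243, 215 and 183 in plasma cells (0.36 ± 0.22). Psmg3 read 222, 178 and 179 in naive and 137, 152, 100.2 and 155 in plasma cells (-0.52 ± 0.19; adjusted p = 0.0516), with all plasma arrays below the naive ones, and without germinal center array 1 it was called lower (adjusted p = 0.0343). Psmg4 read 111, 151 and 59.8 in naive and 69.6, 73.2, 48.7 and 61.0 in plasma cells (-0.68 ± 0.27; adjusted p = 0.0767), with wide spread in naive cells.

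Of the activators, which open the core without the cap, Psme4 rose more than all members but Psmb7. Its naive arrays gave 681, 352 and 629 and its plasma arrays 1782, 2063, 2689 and 1671, a rise of 1.92 ± 0.24 (3.79-fold; adjusted p = 2.27e-05). Psme3, a nuclear activator, was at 228, 300.0 and 228 in naive and 275, 499.8, 343 and 353 in plasma cells and differed by 0.52 ± 0.26 (adjusted p = 0.16), with overlapping arrays. All 6 genes whose promoter windows are printed for the antioxidant response letters (Psmb5, Psmb6, Psmc6, Psmd12, Psmd9 and Psme4) rose, against 10 of the 28 other members with a promoter. Over all genes the rising share was 14.6% with these letters and 14.1% without, and this split of the members was noticed after their values were seen and was not tested. Of the 13 members with CCAAT, 4 rose, against 12 of the 21 others with a promoter; over all genes the shares were 15.7% with CCAAT and 13.1% without.

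**Figure D3:**
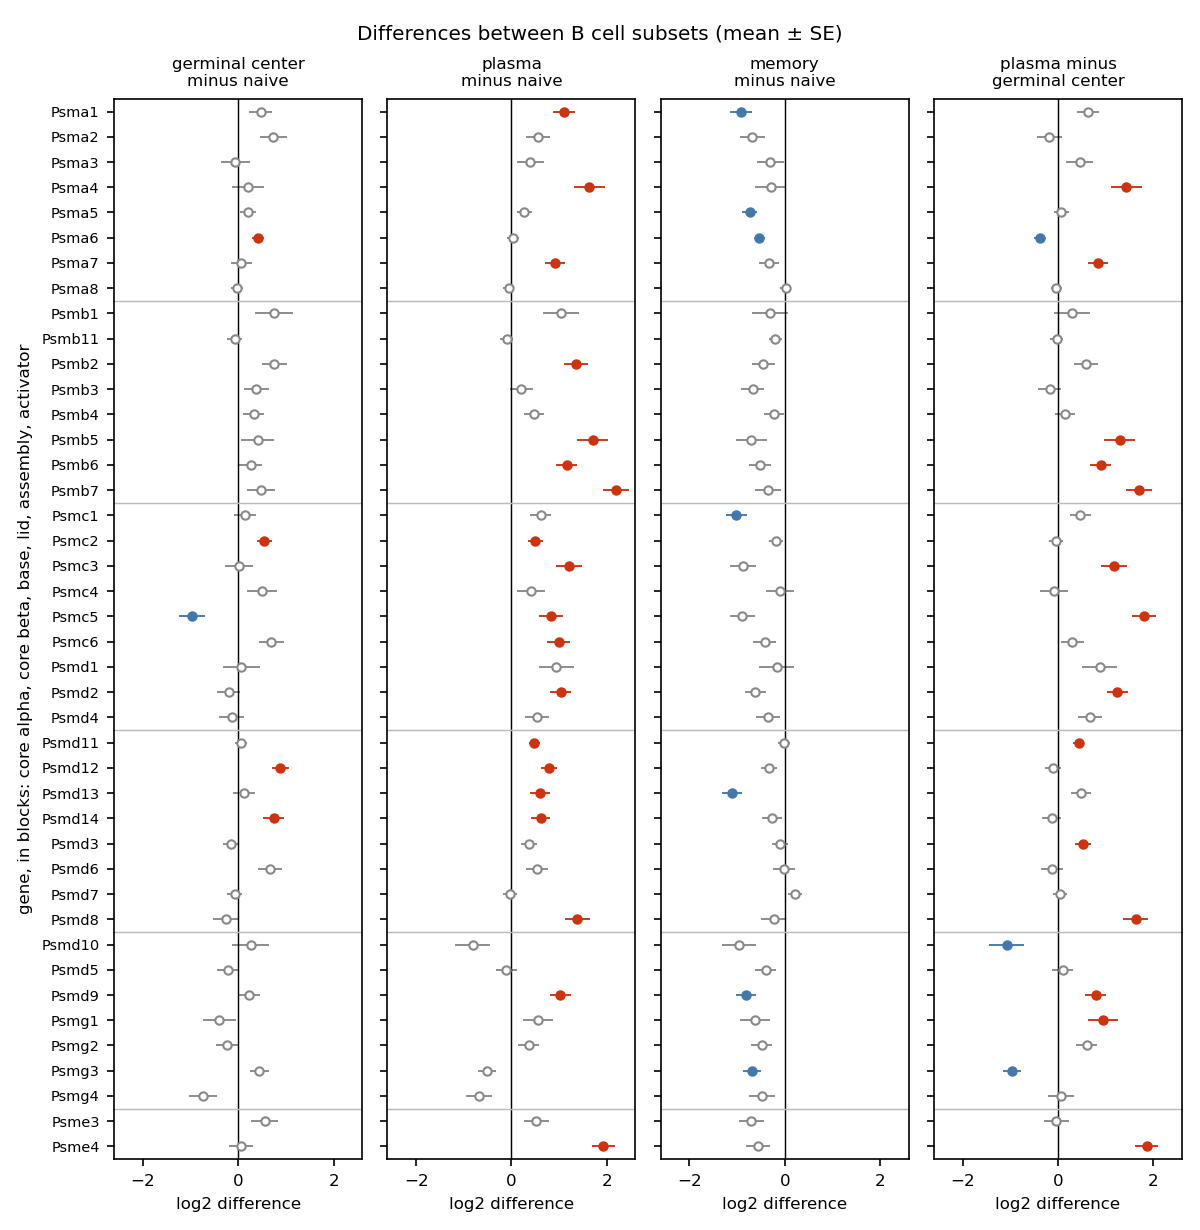
Points are log2 differences of subset means and lines are standard errors from the limma model, for 42 genes in 6 role blocks and 4 comparisons; filled red and blue points passed an adjusted p under 0.05 as higher and lower, open grey points did not. Filled red points number 19 in plasma against naive, 4 in germinal center against naive and 14 in plasma against germinal center cells, and the 7 filled points in memory against naive cells are all blue.

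Germinal center cells were compared with naive cells to ask how far proteasome transcripts differ between dividing and resting B cells. Here 4 members rose (Psmd12, Psmd14, Psmc2 and Psma6) and Psmc5 fell, against 8.37% of all genes higher and 11.1% lower (19.5% in either direction) and 12.9% and 23% of bright genes. Both shares of the members (4 and 1 of 42) were thus near or below those of all genes. The median difference of the members was 0.20 (log2), with 0.06 over all genes and -0.20 over bright genes, and 0.02 without germinal center array 1. Germinal center and plasma arrays both had high sums of dividing-cell markers (7680 to 14108 and 8466 to 9980, against 72.8 to 414 in naive and memory cells), and the part of division in these values was not tested.

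The lid subunit Psmd12 had the largest rise in germinal center cells, to 1455, 852 and 943 (0.88 ± 0.18; adjusted p = 0.00287), and it was called in every fit that left out 1 array. Psmd14 reached 6381, 3572 and 4138 (0.75 ± 0.22; adjusted p = 0.0252). For Psma6 the arrays gave 4992, 5397 and 4379 (0.42 ± 0.13; adjusted p = 0.0348), all above the naive arrays. Dimmer probe sets of Psma6 were divided, with -0.06 for one that was not called and 0.36 for another that was. Psmc5, an ATPase, fell to 78.0, 37.2 and 61.0 from 121, 88.3 and 123 (-0.96 ± 0.27; adjusted p = 0.0213), the reverse of its rise in plasma cells. Without germinal center array 1, only Psmd12 (0.65; adjusted p = 0.00757) and Psmc5 (-1.20; adjusted p = 0.00759) were called: Psmd14 had 0.50 (adjusted p = 0.102), Psma6 0.40 (adjusted p = 0.0762) and Psmc2 0.56 (adjusted p = 0.0527). The count was thus 2 without that array, 1 without naive array 1 and 3 without naive array 3, and Psmc5 lost its call without naive array 1, naive array 3 or germinal center array 2.

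The remaining named members did not pass in germinal center cells. Psma2, with the largest alpha difference, was at 2162, 1068 and 928 in germinal center and 793, 789.9 and 735 in naive cells (0.74 ± 0.28; adjusted p = 0.0786), array 1 far above arrays 2 and 3, and 0.37 without array 1. Psmb2 showed the same spread, with 468, 171 and 296 in germinal center cells (0.76 ± 0.26; adjusted p = 0.0571; 0.41 without array 1). The catalytic subunits read 831, 272 and 346 for Psmb5, 1619, 986 and 866 for Psmb6 and 52.0, 25.9 and 21.0 for Psmb7. In each of the 3, array 1 was above all naive arrays while at least 1 other array lay within or below the naive range, and without array 1 the differences were -0.07 for Psmb5, -0.0093 for Psmb6 and 0.10 for Psmb7, in place of 0.41, 0.26 and 0.49. The chaperone Psmg4 had the largest difference of its role group, at 70.5, 51.5 and 58.8 (-0.74 ± 0.29; adjusted p = 0.0939). Psmg3 was at 329.7, 222 and 244 (0.45 ± 0.20; 0.28 without array 1), Psmd10 at 213, 53.5 and 76.3 (0.26 ± 0.39; -0.32 without array 1) and Psme3 at 465, 311 and 343 (0.56 ± 0.28; 0.39 without array 1). Psma4 and Psmd1 also changed sign without array 1, from 0.20 to -0.26 and from 0.07 to -0.31. So did Psma7 (0.07 to -0.07), Psmc1 (0.14 to -0.05), Psmc3 (0.02 to -0.11), Psmd7 (-0.08 to 0.05) and Psme4 (0.06 to -0.02).

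In memory against naive cells, 7 members fell and 0 rose, against 3.26% of all genes lower and 2.31% higher (5.57% in either direction), and 6.28% and 3.65% of bright genes. The median difference was -0.43 (log2) over the members, -0.03 over all genes and -0.20 over bright genes. Below 0 were 40 of the 42 differences (39 of the 40 detected members), against 10231 of the 18193 genes and 4117 of the 6116 bright genes. The 7 were the alpha subunits Psma1, Psma5 and Psma6, the ATPase Psmc1, the lid subunit Psmd13 and the chaperones Psmd9 and Psmg3. With arrays centred on bright genes the count was 2. It was 3, 2 and 3 without naive arrays 1, 2 and 3, and 4 without memory array 1 or memory array 2. Without germinal center array 1, which shares the fit, it was 10.

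Psmd13 had the largest fall, from 53.7, 53.4 and 41.7 in naive to 19.4, 19.4, 29.9 and 24.3 in memory cells (-1.11 ± 0.21; adjusted p = 0.00649), a level close to background. Psmc1 went from 589, 526 and 515 to 227, 252, 289.7 and 312 (-1.02 ± 0.22; adjusted p = 0.015). The memory arrays of Psma1 read 267, 248, 290.4 and 355 (-0.92 ± 0.23; adjusted p = 0.0295), below every naive array. Psma5 went from 1789.5, 2376 and 1958 to 1219, 1193, 1156 and 1298 (-0.74 ± 0.15; adjusted p = 0.012), with little spread among memory arrays. Psma6 stood at 2713, 2599.6, 2335 and 2554 (-0.53 ± 0.12; adjusted p = 0.0187). Psmd9 read 30.1, 29.9, 54.3 and 39.3 (-0.82 ± 0.22; adjusted p = 0.0404) and Psmg3 94.9, 125, 134 and 127 (-0.69 ± 0.19; adjusted p = 0.0491). The last pair of calls was fragile, being lost in 9 and 11 of the 14 fits that left out 1 array.

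The catalytic subunits were not called in memory against naive cells. Psmb5 was at 131, 204, 306 and 184 in memory cells (-0.71 ± 0.32; adjusted p = 0.271), with array 3 inside the naive range. Psmb6 was at 623, 588, 805 and 599 (-0.52 ± 0.23) and Psmb7 at 18.3, 15.99, 21.0 and 13.5 (-0.36 ± 0.27). Psme3 read 91.5, 199, 174 and 178 (-0.70 ± 0.26; adjusted p = 0.164), all arrays below the naive ones, and Psme4 285, 323, 425 and 434 (-0.56 ± 0.24; adjusted p = 0.234). Memory array 1 was the lowest memory array for 21 of the 40 detected members, against 37.0% of bright genes.

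Plasma cells were also set against germinal center cells, the other dividing population; this comparison shares its plasma arrays with the one against naive cells. Here 14 members were higher and 3 lower in plasma cells, against 11.2% and 12.6% of all genes (23.8% in either direction) and 20.8% and 26.3% of bright genes. The higher members were Psma4, Psma7, Psmb5, Psmb6 and Psmb7 of the core, Psmc3, Psmc5 and Psmd2 of the base, Psmd3, Psmd8 and Psmd11 of the lid, Psmd9 and Psmg1 among chaperones, and Psme4. The lower members were Psma6, Psmd10 and Psmg3. Differences of the higher members ran from 0.43 (Psmd11) to 1.86 (Psme4), with Psmc5 at 1.80 ± 0.25 (adjusted p = 8.52e-05), Psmb7 at 1.70 ± 0.27 (adjusted p = 0.000287) and Psmd8 at 1.63 ± 0.26 (adjusted p = 0.000269). Dimmer probe sets of Psmd11 were divided. By limma's test over all probe sets, -1.44 (adjusted p = 9.58e-05) and 0.84 (adjusted p = 0.026) were called, and -0.25 was not. Psme4 was at 618, 463 and 595 in germinal center cells, close to its naive level and below each plasma array.

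Psmg3 differed in plasma from germinal center cells by -0.96 ± 0.19 (adjusted p = 0.00145), with no overlap between the arrays. Psmd10 differed by -1.08 ± 0.36 (adjusted p = 0.0443) and Psma6 by -0.38 ± 0.12 (adjusted p = 0.0331). Dimmer probe sets of Psma6 gave 0.25 and -0.22, neither of them called. Without germinal center array 1, Psmd10 had -0.50 (adjusted p = 0.202), Psma6 -0.37 (adjusted p = 0.0789) and the lid subunit Psmd3 0.38 (adjusted p = 0.159), so that Psmg3 alone was called lower. Without that array Psma1 (0.94; adjusted p = 0.00282), Psmb2 (0.94; adjusted p = 0.00295), Psmd1 (1.25; adjusted p = 0.0252) and Psmd4 (0.90; adjusted p = 0.0229) were also called higher. The count of lower members was also 1 without plasma array 2 or plasma array 3. With the actin ratio as a covariate, 7 members were higher, in place of 14.

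Memory cells were then set against germinal center cells. Here 20 members were lower and 0 higher in memory cells, against 11.5% and 11% of all genes (22.4% in either direction) and 20.8% and 22.2% of bright genes, with a median of -0.71 (log2). The 20 comprised 9 core, 4 base and 3 lid genes, 3 chaperones and Psme3. The largest differences were those of Psma2 (-1.42 ± 0.26; adjusted p = 0.00105) and Psma1 (-1.39 ± 0.23; adjusted p = 0.000453). A second, dimmer probe set of Psma1 moved the opposite way, by 1.09, and passed limma's test over all probe sets (adjusted p = 0.0197). Without germinal center array 1 the count was 16, and the catalytic subunits were no longer called, at -0.64 for Psmb5 (adjusted p = 0.103), -0.51 for Psmb6 (adjusted p = 0.12) and -0.46 for Psmb7 (adjusted p = 0.197).

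The widest contrast was plasma against memory cells, in which 32 members were higher and 0 lower in plasma cells, against 17.2% and 16% of all genes (33.2% in either direction) and 28.5% and 32.6% of bright genes. The median difference was 1.11 (log2), against 0.08 over all genes. The 32 comprised 13 of 16 core genes, 8 of 9 base genes, 6 of 8 lid genes, 3 of 7 chaperones and both activators, and for each of them the lowest plasma array was above the highest memory array, as it was for 91.0% of all genes called higher (15.7% of all genes tested). Psmb7 (2.54 ± 0.25; 5.83-fold; adjusted p = 1.88e-06), Psme4 (2.48 ± 0.22; 5.59-fold; adjusted p = 6.66e-07) and Psmb5 (2.41 ± 0.30; 5.31-fold; adjusted p = 1.71e-05) had the largest differences. The detected members not called were Psma3, Psmc4, Psmd6, Psmd7, Psmd5, Psmd10, Psmg3 and Psmg4. By further probe sets above background on all arrays, Psmc4 (1.42) and Psmd6 (1.05) were called higher. By such probe sets Psma3 (-0.87), Psmg3 (-0.88) and Psma1 (-0.88), itself called higher on its chosen probe set, were called lower. Psmd10 read 27.4, 38.9, 54.2 and 48.1 in memory cells, overlapping its plasma arrays, as did Psmg3.

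Core, base and lid were then summarised on each array. Over the 14 detected core genes, the median log2 difference from the naive mean was 1.41, 0.71, 0.64 and 0.72 on plasma arrays, 0.97, 0.14 and 0.09 on germinal center arrays and -0.66, -0.49, -0.32 and -0.56 on memory arrays. The base gave 0.75, 0.90, 0.75 and 0.73 on plasma arrays, 0.32, -0.42 and 0.41 on germinal center arrays and -0.96, -0.72, -0.28 and -0.37 on memory arrays. For the lid, plasma arrays gave 0.63, 0.46, 0.63 and 0.59, germinal center arrays 0.05, 0.35 and 0.12 and memory arrays -0.13, -0.29, -0.16 and -0.05. In these 3 role groups every plasma array lay above, and every memory array below, all naive arrays, whereas germinal center arrays ran from -0.42 to 0.97. Assembly chaperones had -0.32, 0.08, -0.22 and 0.04 on plasma arrays, which overlapped the naive arrays, and -1.06, -0.61, -0.27 and -0.44 on memory arrays. The core median in germinal center against naive cells was 0.35 over all 16 core genes and 0.11 without germinal center array 1. Differences between role groups were not tested.

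**Figure D4:**
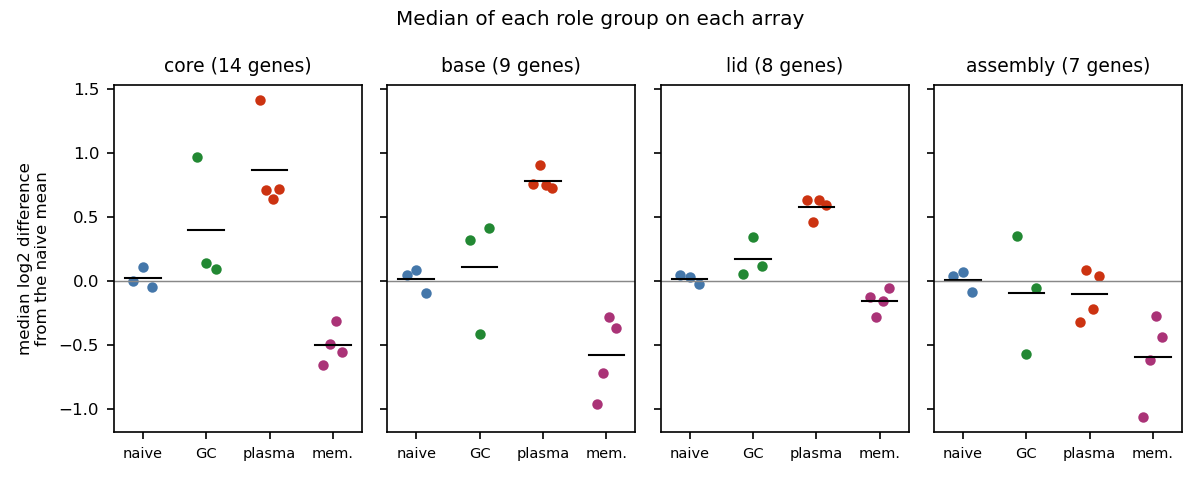
Points are the median, over the genes of a role group, of the log2 difference between 1 array and the naive mean; bars are subset means, and Psma8 and Psmb11 are left out of the core. Plasma points of the core, base and lid lie between 0.46 and 1.41, memory points between -0.96 and -0.05, and plasma points of the assembly chaperones between -0.32 and 0.08.

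The counts depended on the scaling of the arrays. With arrays centred on bright genes, plasma against naive cells gave 30 members higher, germinal center against naive cells 9 higher and 1 lower, and memory against naive cells 2 lower. In that scaling, the share of all called genes that were higher went from 46.8% to 67.4% in plasma, from 43.0% to 57.6% in germinal center and from 41.5% to 68.2% in memory against naive cells. Arrays were also centred on the median of all probe sets other than controls. Counts were then 16 higher and 1 lower in plasma, 2 and 1 in germinal center, and 0 and 7 in memory against naive cells. Plasma against memory cells gave 32 higher and 0 lower under each of the 4 scalings.

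The immunoproteasome subunits, which replace the catalytic subunits in immune cells, were read from the same fit. Psmb8, the counterpart of Psmb5, was at 433, 409 and 299.7 in naive and 1060.2, 1052, 932 and 971 in plasma cells, a rise of 1.41 ± 0.28 (adjusted p = 0.00124). Psmb9, the counterpart of Psmb6, rose by 0.93 ± 0.22 (adjusted p = 0.00518). Psmb10, the counterpart of Psmb7, differed by 0.01 ± 0.24 in plasma cells (adjusted p = 0.976) and fell by 0.88 in germinal center cells (adjusted p = 0.0253), where it read 172, 126 and 168 against 302, 303 and 248 in naive cells and differed by -0.96 without array 1. The activator subunit Psme1 fell by 0.88 in memory against naive cells (adjusted p = 0.0457). Psme2 was not analysed here, because its probe set also carries another symbol.

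Of 33 listed partners of the ubiquitin-proteasome system, 24 were measured. In plasma against naive cells 6 were higher and 3 lower. Germinal center against naive cells gave 4 and 3 (3 and 4 without array 1). Memory against naive cells gave 0 and 0 (0 and 1 without germinal center array 1). The shares of all genes were 14.2% and 16.1% in plasma, 8.37% and 11.1% in germinal center and 2.31% and 3.26% in memory against naive cells. At an unadjusted p under 0.05, limma's test gave 8 of the 24 partners in memory against naive cells (33.3%), against 17.9% of all genes and 32.1% of bright genes. Pomp, the chaperone that completes the core, went from 58.1, 55.1 and 48.1 in naive to 217, 94.3 and 69.6 in germinal center (1.07 ± 0.36; adjusted p = 0.0496) and 139.6, 175, 151 and 167 in plasma cells (1.56 ± 0.33; adjusted p = 0.00227). Without germinal center array 1 the difference of Pomp in germinal center cells was 0.60 (adjusted p = 0.19). Named after their values were seen, the small cap subunit Sem1 rose by 1.46 ± 0.32 and the cap deubiquitinase Uchl5 by 1.59 ± 0.27 in germinal center cells (adjusted p = 0.00463 and 0.000647), and by 1.19 and 1.27 without array 1, where both were still called. The segregase Vcp rose from 652, 705 and 678 to 2647, 2906, 3095 and 3472 in plasma cells (2.15 ± 0.20; adjusted p = 1.31e-06). Rad23b, a shuttle for ubiquitinated proteins, was at 54.3, 49.3 and 52.5 in naive and 136, 326, 392 and 101 in plasma cells, a rise of 1.98 ± 0.51 with wide spread among plasma arrays (adjusted p = 0.00833). Psmf1, an inhibitor of the core, fell from 154, 376 and 300.3 to 93.9, 70.2, 76.0 and 48.8 (-1.88 ± 0.34; adjusted p = 0.000646) and was at 49.4, 48.4 and 107 in germinal center cells (-2.03 ± 0.37; adjusted p = 0.00107; -1.85 without array 1).

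The transcription factors that read the antioxidant response letters did not rise in plasma cells. Nfe2l1 was at 183, 239 and 160.4 in naive and 178, 139.6, 156 and 159.6 in plasma cells (-0.28 ± 0.20; adjusted p = 0.327), with overlapping arrays. Nfe2l2 fell from 819, 679 and 957 to 293, 290.3, 359 and 230.0 (-1.48 ± 0.22; adjusted p = 0.000131). These are transcript levels, and protein activity was not measured.

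Of the 42 members, 24 had more than 1 probe set, 91 in all. In 16 genes at least 1 further probe set was above background on all arrays, giving 19 pairs with the chosen one. Both probe sets of a pair moved the same way in 16 of 19 pairs in plasma against naive cells and in 16 of 19 in memory against naive cells, but in 11 of 19 in germinal center against naive cells and 10 of 19 in plasma against germinal center cells. For germinal center against naive cells, opposed pairs included Psma1 (0.47 for the chosen and -1.69 for the other probe set), Psmg3 (0.45 and -1.66), the ubiquitin receptor Psmd4 (-0.14 and 0.56) and the called Psma6 (0.42 and -0.06). In plasma against naive cells, further probe sets of Psmc4, Psmd4 and Psmd6 were called higher, and those of Psma3 and Psmg3 lower. The chosen probe sets of these genes were not called there. The chosen probe sets of Psma6, Psmb4 and Psmc2 are of a type that can also detect related sequences, and those of Psme4 and Psmd11 of a type shared by several transcripts, so the levels of these 5 members are less certain.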

How the data were processed

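The values were the authors' deposited normalized intensities on a linear scale, made with RMA per the submitters' processing notes; software versions and any further scaling are not given in the sources used here, and the linear scale was read from the values. They were taken to log2. Of 45101 probe sets, 64 controls, 932 with several symbols and 9160 with none were left out of the fit; 34945 with 1 symbol gave 18193 genes, 1 probe set each. Names come from GEO's platform annotation, of which 34741 probe sets matched RefSeq genes. Background was the level of 27 unspiked bacterial control probe sets. With limma 3.58.1 in R 4.3.3, 1 mean per subset was fitted over all 14 arrays (lmFit and eBayes, 10 residual degrees of freedom), and 6 two-sided contrasts were adjusted by Benjamini-Hochberg over all genes and called at an adjusted p under 0.05. Errors are standard errors of the fit with 3 naive, 3 germinal center, 4 plasma and 4 memory arrays; the number of arrays limits the precision. Comparisons share arrays, so their results are not independent. Counts and medians of role groups are descriptions without a test.

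Members and lists were chosen with earlier results of these data known. Named with values were, per role group, the members with the largest pair of differences and the smallest difference between plasma and naive cells, the largest between germinal center and naive cells, the catalytic subunits, Psmd14, Psmd4, the activators, Psmg1 to Psmg4, Psma8, Psmb11 and all members called in memory against naive cells; other names give called members or exceptions seen afterwards. Of the partner list, Pomp, Nfe2l1, Nfe2l2, and those with the largest differences in plasma cells were named. Alternatives covered scaling, probe sets, filters, variance models, covariates, a replicate block and leaving out each array. The fit was tested on simulated data with known changes against naive arrays, in 66 or 67 of the 18193 genes per comparison at each size. Changes of 0.5 (log2) were called in 11.9% of cases on plasma, 8.96% on memory and 1.49% on germinal center arrays. In the same order, changes of 1 were called in 67.2%, 58.2% and 56.7%, and changes of 2 in 98.5%, 90.9% and 95.5%. False calls made up 8.53%, 5.41% and 8.93% of all calls. Far more genes were called in the data: 5517 in plasma, 3542 in germinal center and 1014 in memory against naive cells. The adjusted p threshold is then reached more easily, so the simulated rates do not carry over to the members. A difference near 0.5 that was not called is still no sign of equal levels.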

Additional observations from a re-analysis of the deposited data

Results flagged for a closer look

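In the 84 groups of 4 arrays that were checked (42 members in plasma and in memory cells), 4 held an array whose distance to the nearest other array exceeded Dixon's critical value as a share of the group's range; chance alone gives about 1 in 20 such groups. Memory array 1 gave 368 for the alpha subunit Psma2, against 517 to 554 on memory arrays 2 to 4. The same array gave 989 for the alpha subunit Psma3, against 2128 to 2407 on the others. Plasma array 1 gave 924 for the scaffold Psmd1, against 446 to 493, and plasma array 4 gave 36.1 for the chaperone Psmd10, against 48.1 to 49.6. Groups of 3 arrays were not checked in this way.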

How the results depend on the processing

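The number of arrays limits precision, and signal near background limits Psma8, Psmb11, Psmb7 and Psmd13. Over the 6 comparisons, the other settings changed no direction of a called member except where probe sets were chosen otherwise. In germinal center against naive cells the count of called members, 5 (4 higher, 1 lower), was 9 (8 higher) after quantile normalization, 3 (2 higher) with arrays centred on their median, 10 (9 higher) centred on bright genes, 11 (5 lower) counting each member by its probe set with the lowest p, 1 (1 higher, 0 lower) with only the arrays compared, 2 (2 higher, 0 lower) with the actin ratio as covariate and 1 (1 higher, 0 lower) at an adjusted p under 0.01. It had 2 higher and 2 lower on the mean of all probe sets and 0 lower with a floor of 16. Plasma against naive cells, 19 higher and 0 lower, had 30 higher centred on bright genes, and 1 lower centred on the median, on the mean of probe sets or with only the arrays compared, and 4 lower by lowest p. Memory against naive cells, 7 lower, gave 2 centred on bright genes, 4 with a floor of 16, 2 on the mean of probe sets, 4 with a variance trend and 1 at an adjusted p under 0.01. Plasma against germinal center cells, 17 called (14 higher, 3 lower), gave 9 (7 higher) with the actin ratio and 11 (1 lower) at an adjusted p under 0.01, and 1 lower with only the arrays compared. By lowest p, 2 members were higher in memory than in germinal center cells and 2 lower in plasma than in memory cells. The causes were not tested. The F test was not run with only the arrays compared.

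Leaving out each array in turn gave 1 to 7 members called in germinal center against naive cells (1 to 6 higher, 0 to 1 lower), 16 to 25 in plasma against naive (16 to 23 higher, 0 to 2 lower), 2 to 10 in memory against naive, 13 to 18 in plasma against germinal center (11 to 17 higher, 1 to 3 lower), 16 to 21 in memory against germinal center, 30 to 34 in plasma against memory cells, and 28 to 34 by the F test. Where the labels' replicate number was entered as a replicate block, 236 of 252 differences of single members kept their side of the threshold, 15 lost and 1 gained a call, and 1 member in place of 3 was lower in plasma than in germinal center cells; the other counts stayed within 1.5 times. Same-numbered arrays did not deviate together (correlations -0.23 to 0.24), and 4 of 14 arrays correlated best with an array of their own number.

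A member's difference that was called, as reported or under the alternative, changed sign only with other probe sets. Differences called in neither changed sign 146 times under the other settings, 23 of them without germinal center array 1, where the base median in germinal center against naive cells went from 0.07 to -0.11. The sign changes among called differences follow. On the mean of all probe sets the log2 difference was -0.61 for Psmg3 in germinal center against naive cells, -0.081 for Psma1, 0.30 for Psmd7 and -0.075 for Psmd9 in plasma against naive, -0.018 for Psmd9 in plasma against germinal center, 0.019 for Psma1 in memory against germinal center and 0.29 for Psmd7 in plasma against memory cells. By the probe set with the lowest p it was -1.69 for Psma1, 0.56 for Psmd4, -1.66 for Psmg3 and -1.51 for Psme4 in germinal center against naive; -1.49 for Psma1, -0.94 for Psma3, 0.94 for Psmd7 and -1.26 for Psmd9 in plasma against naive; 1.16 for Psmb3, 0.82 for Psmc2, -1.44 for Psmd11 and 0.40 for Psme3 in plasma against germinal center; 0.76 for Psma3 and 0.65 for Psme4 in memory against germinal center; and -0.87 for Psma3, 1.09 for Psmd7 and -0.88 for Psmg3 in plasma against memory cells.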
